A study of Mus musculus with 35 samples.

Results

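The genes described here are 10 mouse surface markers by which blood stem cells and their early descendants are recognised and sorted: Slamf1, Cd48, Ly6a, Kit, Flt3, Cd34, Procr, Esam, Eng and Cd27. They were listed by name, with earlier results of these data known, and all 10 were found among the 19138 genes counted. RNA was measured in 35 libraries of sorted LT-HSCs, the long-term stem cells that sustain all blood lineages, each library from 1000 cells. All mice carried SclCre, a Cre recombinase driven by Scl, a gene active in blood stem and progenitor cells. The groups were SclCre;JAK2V617F;Ezh2-/- (here VF Ezh2 -/-, 6 libraries), SclCre;JAK2V617F;Ezh2+/- (VF Ezh2 +/-, 8 libraries), SclCre;JAK2V617F (VF, 6 libraries), SclCre;Ezh2-/- (Ezh2 -/-, 4 libraries), SclCre;Ezh2+/- (Ezh2 +/-, 7 libraries) and SclCre alone with intact Ezh2 (control, 4 libraries). JAK2V617F is the activating kinase mutation of myeloproliferative neoplasms, and Ezh2 is the methyltransferase through which PRC2 silences genes. The sources used here give neither the age of the mice, nor the time of Cre activity, nor the markers of the sorting gate. Every value below is RNA of cells that had already passed a gate which may have used some of these same proteins. Animals are not named in the labels, and p-values therefore measure the spread among libraries, which may be technical.

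Libraries held 13.6 to 48.6 M counts (M, mega; median 24.9), and 14 libraries belonged to experimental batch 1 and 21 to batch 2. Sex was not balanced: all 4 controls came from females, while VF cells came from females in batch 1 (2) and from males in batch 2 (4), so the fit held terms for batch and sex. As the check of Ezh2 itself, the separate entry for a stretch of the gene had, per 100 Ezh2 counts, 0 in VF Ezh2 -/- and 4.08 to 8.50 in VF Ezh2 +/- against 6.34 to 9.27 in VF libraries, and 0 to 0.478 in Ezh2 -/- and 0 to 9.50 in Ezh2 +/- against 6.02 to 8.72 in control libraries. The sources used here do not say whether this stretch is what the knockout removes. The 2 libraries labelled Ezh2 +/- batch 1 replicates 1 and 3 went against their labels. The library labelled Ezh2 +/- batch 1 replicate 1 had 9309 Xist counts and a male label, while the other males had 16 to 321 and females at least 11437. The library labelled Ezh2 +/- batch 1 replicate 3 had no count in the Ezh2 part. The other Ezh2 +/- libraries also spread widely in this part per 100 Ezh2 counts. Batch 1 replicate 2 had 8.66, and batch 2 replicates 1 to 4 had 1.74, 4.79, 1.77 and 5.80. Leaving out the 2 named libraries therefore does not settle the genotype of the rest. Results on Ezh2 +/- cells are given with them, and their values without them where these differed in call.

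Stem cells of mouse marrow are found among cells without lineage markers that carry Kit, the receptor of stem cell factor, and Sca-1, the protein of Ly6a. Within these, the SLAM receptor CD150 (Slamf1) marks stem cells and its relative CD48 (Cd48) marks progenitors, while CD34 and the cytokine receptor Flt3 are known to appear as adult mouse stem cells turn into multipotent progenitors. EPCR (Procr), the receptor of protein C, the junction protein Esam and endoglin (Eng), a co-receptor of the TGF-beta family, are enriched on stem cells, and Cd27, a TNF receptor family member, is carried by stem cells and early progenitors.

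Procr, Eng and Cd34 passed the test in 2 or more comparisons of cells with and without JAK2V617F, and the promoters of these 3 are shown for orientation. The 250 bases before the transcription start are from RefSeq, build GRCm38.p6, plus strand, read 5′ to 3′. Capitals mark the ETS core GGAAG or its reverse complement.

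Procr, chr2:155750967-155751216: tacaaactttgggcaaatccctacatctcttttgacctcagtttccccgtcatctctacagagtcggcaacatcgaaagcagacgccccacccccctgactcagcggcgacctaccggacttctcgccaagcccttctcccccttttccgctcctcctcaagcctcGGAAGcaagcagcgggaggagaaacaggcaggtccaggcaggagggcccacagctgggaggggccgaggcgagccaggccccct

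Eng, chr2:32646345-32646594: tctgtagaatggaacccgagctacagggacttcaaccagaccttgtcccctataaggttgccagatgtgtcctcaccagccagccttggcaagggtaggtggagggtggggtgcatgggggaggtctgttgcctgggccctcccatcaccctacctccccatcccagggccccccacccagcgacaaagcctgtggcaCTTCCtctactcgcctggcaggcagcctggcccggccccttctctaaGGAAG

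Cd34, chr1:194938571-194938820: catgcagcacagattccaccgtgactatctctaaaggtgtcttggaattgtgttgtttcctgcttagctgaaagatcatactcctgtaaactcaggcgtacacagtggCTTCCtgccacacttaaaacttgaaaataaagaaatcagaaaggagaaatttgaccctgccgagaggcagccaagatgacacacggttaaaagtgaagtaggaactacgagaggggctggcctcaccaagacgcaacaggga

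The windows were searched on both strands for GGAAG, for the GATA core (spelled GATAA), for the RUNX core (spelled TGTGGT) and for the STAT site (spelled TTCNNNGAA), STAT factors being the best known substrates of JAK kinases. The ETS core occurred 1 time in the Procr window, 2 times in the Eng window and 1 time in the Cd34 window, and it occurs in 64.1% of all 32536 promoter windows of this length. The GATA core, found in 22.5% of windows, the RUNX core, in 14%, and the STAT site, in 7.04%, did not occur in these 3. Promoters of 8 of the 10 genes were in the table, which held none for Ly6a and Esam.

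Levels are CPM, counts divided by the TMM-normalised library size in M, and levels of different genes are compared as CPM per kilobase of gene length. Over the 35 libraries the median level was 209 CPM per kilobase for Kit and 197 for Ly6a, followed by Esam at 120.3, Cd27 at 115, Cd34 at 102, Eng at 87.5 and Procr at 82.0. Slamf1 lay at 22.8, and the progenitor markers Flt3 and Cd48 were lowest, at 9.20 and 5.62 CPM per kilobase. Neighbours in this order were often not separated: Kit exceeded Ly6a in 18 of 35 libraries, Esam exceeded Cd27 in 19, Cd27 exceeded Cd34 in 22, Cd34 exceeded Eng in 21 and Eng exceeded Procr in 16. Procr exceeded Slamf1 in all 35 libraries, Slamf1 exceeded Flt3 in 34, Ly6a exceeded Esam in 33, and Flt3 exceeded Cd48 in 28. The order depended on the group. Ly6a had a higher median than Kit in VF Ezh2 -/- libraries (228 and 164 CPM per kilobase) and in Ezh2 -/- libraries (294 and 234), Cd34 ranked 2 in VF and 7 in control libraries, and Procr ranked 7 in VF and 5 in control libraries. Slamf1, Flt3 and Cd48 held the last 3 ranks in every group. Cd48 had no count in 5 libraries and reached 19.8 CPM at most. Cd34, a gene known to be low in adult mouse LT-HSCs, was present in every library at 120 to 523 CPM. The other stem-cell genes checked were also present throughout, with Hlf at 216 to 695 CPM and Mecom at 95.1 to 304 CPM.

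**Figure D1:**
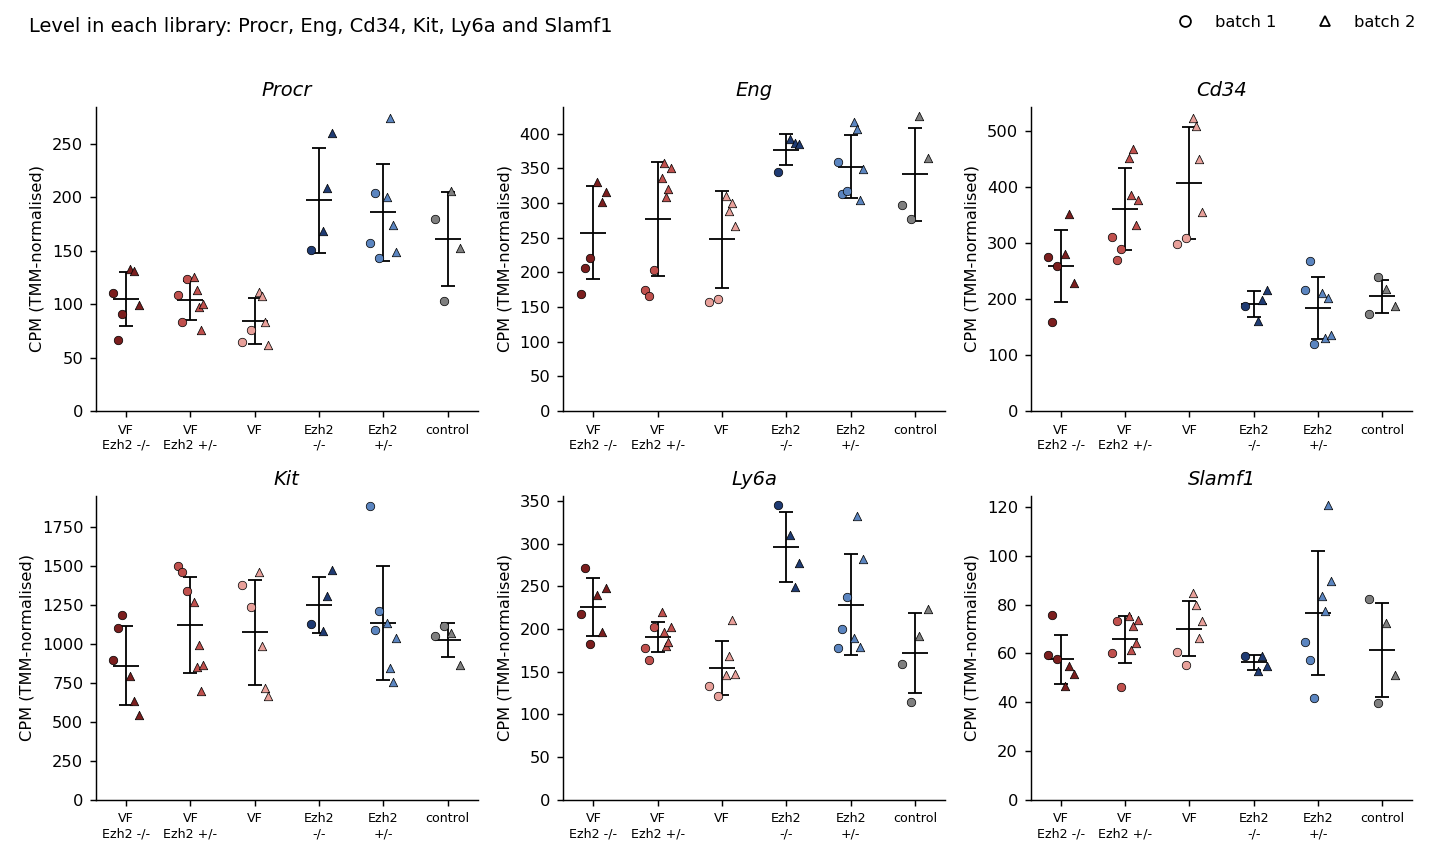
Level of Procr, Eng, Cd34, Kit, Ly6a and Slamf1 in each library (y axis, TMM-normalised CPM, linear from 0) by genotype group (x axis). Points are libraries (circles batch 1, triangles batch 2), and bars give the mean ± SD of the group. Procr lies lower and Cd34 higher in most libraries with JAK2V617F, and the batch 1 libraries with JAK2V617F have the lowest Eng, 157 to 221 CPM.

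JAK2V617F was compared with its absence at each of the 3 Ezh2 genotypes, with no library shared between the 3 comparisons. Procr fell in all 3, to 52.3% of the control mean in VF cells, 55.6% of the Ezh2 +/- mean in VF Ezh2 +/- cells and 53.2% of the Ezh2 -/- mean in VF Ezh2 -/- cells. Cd34 stood at 199%, 197% and 136% in the same order, and Eng at 72.5%, 78.6% and 68.2%. The changes of Cd34 and Eng passed the test in the first 2 comparisons and not in the third. Kit fell in the last, to 68.9%. These percentages compare group means without the terms for batch and sex. With them, the fitted folds in VF against control cells were 0.50 for Procr, 1.77 for Cd34 and 0.63 for Eng. For Kit in VF Ezh2 -/- against Ezh2 -/- cells the fitted fold was 0.60. In VF against control cells 3 of the 10 genes passed edgeR's quasi-likelihood test at an adjusted p under 0.05 (Cd34 higher, Procr and Eng lower), and 4.22% of the 14945 genes tested passed (2.4% higher, 1.83% lower). In VF Ezh2 +/- against Ezh2 +/- cells the same 3 genes passed in the same directions, where 9.05% of genes passed (4.88% higher, 4.18% lower). In VF Ezh2 -/- against Ezh2 -/- cells 2 of the 10 passed (Procr and Kit, both lower), where 4.84% of genes passed (2.86% higher, 1.97% lower). In these bulk libraries fewer cells of a type and less RNA per cell cannot be told apart.

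Procr (Entrez gene 19124) encodes EPCR, which binds protein C and is among the markers most used to refine stem cell sorts. VF libraries had 61.8 CPM at the lowest, 79.3 at the median and 112 at the highest, against 103, 153, 180.2 and 206 CPM in the 4 control libraries. The groups overlapped through 1 control library, batch 1 replicate 2. The log2 change was -1.01 ± 0.21 (SE; edgeR quasi-likelihood test, adjusted p = 0.00328), with means of 84.1 ± 21.2 and 161 ± 44.0 CPM (SD, n = 6 VF and 4 control).
In VF Ezh2 +/- libraries Procr had 75.7, 105 and 126 CPM as lowest, median and highest, against 143, 174 and 274 CPM in Ezh2 +/- libraries. All 8 lay below all 7, and of all genes tested 1.43% had groups without overlap. Procr thus changed by -0.84 ± 0.16 on the log2 scale (adjusted p = 0.000565, edgeR).
Where Ezh2 was absent, Procr had 66.6, 105 and 133 CPM in VF Ezh2 -/- libraries, against 150.3, 169, 209 and 261 CPM in the 4 Ezh2 -/- libraries. The groups did not overlap, as those of 6.84% of all genes tested did not, and the change was -0.82 ± 0.20 (edgeR, adjusted p = 0.0134). This last call was lost without Ezh2 -/- batch 2 replicate 3 (log2 change -0.70, adjusted p = 0.0655). The calls in the other 2 comparisons were kept whichever library was left out, and the changes within the batches were -1.02 in batch 1 alone and -1.04 in batch 2 alone for VF against control, -0.71 and -0.95 for VF Ezh2 +/- against Ezh2 +/-, and -0.82 and -0.79 for VF Ezh2 -/- against Ezh2 -/- cells. Within 1 batch, the change passed in batch 2 for VF Ezh2 +/- against Ezh2 +/- cells (adjusted p = 0.00747) and in none of the other 5 cases. The batch 1 value of -0.82 for VF Ezh2 -/- against Ezh2 -/- cells rests on 1 Ezh2 -/- library. The batch term described for Eng below was -0.14 ± 0.23 for Procr (edgeR, adjusted p = 0.908).

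Eng (Entrez gene 13805) encodes endoglin, which presents ligands of the TGF-beta family to their receptors. VF libraries had 157 CPM at the lowest, 278 at the median and 309.7 at the highest, against 277, 297, 365 and 425 CPM in control libraries, and 3 of the 6 VF libraries lay below every control. Its log2 change was -0.66 ± 0.14 (edgeR, adjusted p = 0.00326).
Eng levels of 165, 314 and 358 CPM were the lowest, median and highest in VF Ezh2 +/- libraries, against 304, 349 and 417 CPM in Ezh2 +/- libraries. The 3 lowest VF Ezh2 +/- libraries were those of batch 1, and the groups otherwise overlapped. Eng had a log2 change of -0.42 ± 0.10 (adjusted p = 0.00742, edgeR quasi-likelihood test), and without the 2 doubted libraries it was -0.30 and no longer passed (adjusted p = 0.0823).
Where Ezh2 was absent, Eng had 168, 261 and 329.9 CPM in VF Ezh2 -/- libraries, against 344, 385, 386 and 392 CPM in Ezh2 -/- libraries, and the groups did not overlap, as those of 6.84% of all genes did not. The log2 change of -0.40 ± 0.13 did not pass (edgeR, adjusted p = 0.0762), while it passed with DESeq2 (-0.41, adjusted p = 0.0375) and in edgeR without the sex term (-0.46, adjusted p = 0.0252).

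The Eng difference was larger in batch 1 than in batch 2. In batch 1 alone its log2 change was -0.85 for VF against control, -0.88 for VF Ezh2 +/- against Ezh2 +/- and -0.84 for VF Ezh2 -/- against Ezh2 -/- cells, and in batch 2 alone it was -0.44, -0.14 and -0.29. In batch 1 the 2 VF libraries had 157 and 161 CPM against 297 and 277 in the 2 controls, and the 3 VF Ezh2 +/- libraries had 165 to 203 CPM against 313 to 359.6 in the 3 Ezh2 +/- libraries. The batch 1 value of -0.84 rests on 1 Ezh2 -/- library, from a male, at 344 CPM. Against it stood 3 VF Ezh2 -/- libraries, from females, at 168 to 221 CPM. In batch 2 the 5 VF Ezh2 +/- libraries had 308 to 358 CPM and the 4 Ezh2 +/- libraries 304 to 417, so these overlapped. A term for the JAK2V617F effect in batch 2 minus that in batch 1, added after seeing the data, was 0.57 ± 0.11 (edgeR, adjusted p = 0.0121), and Eng was the only one of the 10 genes past the threshold, where 0.174% of all genes passed. The call was lost without VF Ezh2 +/- batch 1 replicate 2 (adjusted p = 0.0782) and without the 2 doubted libraries (log2 difference 0.52, adjusted p = 0.0517). For Cd34 the same term was 0.55 ± 0.21 (adjusted p = 0.324), and for the other 8 genes the adjusted p was 0.417 or more.

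**Figure D2:**
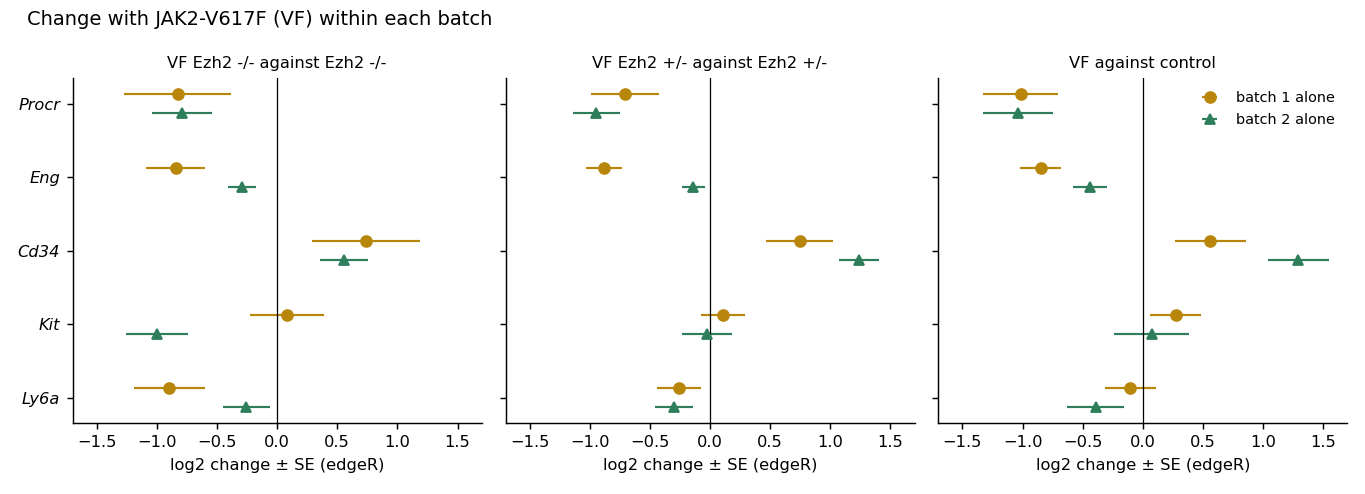
Log2 change with JAK2V617F ± SE (x axis, edgeR) of Procr, Eng, Cd34, Kit and Ly6a within batch 1 (circles) and batch 2 (triangles), 1 panel per Ezh2 genotype. Procr changes were between -0.71 and -1.04 in both batches, while Eng changes were -0.84 to -0.88 in batch 1 and -0.14 to -0.44 in batch 2. Batch 1 held 1 Ezh2 -/- library.

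Cd34 (Entrez gene 12490) encodes a sialomucin whose gain is used to tell multipotent progenitors from adult mouse LT-HSCs. VF libraries had 299, 403 and 523 CPM as lowest, median and highest, against 173, 188, 219 and 239 CPM in control libraries. All 6 lay above all 4, Cd34 being the 1 gene of the 10 whose groups did not overlap here, where the groups of 6.26% of all genes tested did not. Means were 408 ± 100 and 205 ± 29.7 CPM (SD, n = 6 VF and 4 control). The log2 change was 0.83 ± 0.21 (edgeR, adjusted p = 0.0192), and the call was lost without control batch 1 replicate 1 (adjusted p = 0.0733) or control batch 2 replicate 4 (adjusted p = 0.0646). It was also lost in females alone (log2 change 0.71, adjusted p = 0.0743), where the VF libraries are the 2 of batch 1.
Cd34 levels were 270.2, 355 and 468 CPM in VF Ezh2 +/- libraries, against 119.6, 203 and 268.5 CPM in Ezh2 +/- libraries. All 8 lay above all 7, the narrowest gap being between 270.2 and 268.5 CPM, and 1.43% of all genes tested had groups without overlap here. The log2 change was 0.99 ± 0.16 (edgeR, adjusted p = 8.67e-05), and the call was kept whichever library was left out.
Where Ezh2 was absent, Cd34 had 159.5, 266 and 352 CPM in VF Ezh2 -/- libraries, against 160.3, 187, 198 and 216 CPM in Ezh2 -/- libraries. Here 5 of 6 lay above every Ezh2 -/- library and 1, batch 1 replicate 2, below them all. This gave 0.58 ± 0.21 on the log2 scale, which did not pass (edgeR, adjusted p = 0.105). Whether it differed from that in VF against control cells was tested as an interaction, -0.25 ± 0.31, which did not pass (adjusted p = 1.0).

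Kit (Entrez gene 16590) encodes the receptor tyrosine kinase for stem cell factor and had the highest median level of the 10 per kilobase. VF Ezh2 -/- libraries had 543, 848 and 1183 CPM as lowest, median and highest, against 1083, 1124, 1304 and 1475 CPM in Ezh2 -/- libraries, and 4 of the 6 lay below every Ezh2 -/- library. The log2 change was -0.74 ± 0.20 (edgeR, adjusted p = 0.0256). In batch 2 alone the change was -1.0 (3 libraries at 543 to 797 CPM against 3 at 1083 to 1475). In batch 1 alone it was 0.09 (3 libraries at 899 to 1183 CPM against 1 at 1124), a value that rests on 1 Ezh2 -/- library. The batch term described for Eng, which covers all Ezh2 genotypes, was -0.30 ± 0.22 for Kit (edgeR, adjusted p = 0.677). The call was lost in 5 of 10 leave-outs: without Ezh2 -/- batch 2 replicates 1 (adjusted p = 0.0554), 2 (0.0582) or 3 (0.104), and without VF Ezh2 -/- batch 2 replicates 2 (0.0767) or 3 (0.0571). In the other 2 comparisons Kit had log2 changes of 0.15 ± 0.20 for VF against control and -0.01 ± 0.15 for VF Ezh2 +/- against Ezh2 +/- cells, with adjusted p of 0.775 and 0.988 (edgeR).

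The other 6 genes passed in none of the 3 comparisons. Ly6a (Entrez gene 110454), which encodes Sca-1, had log2 changes of -0.21 ± 0.17, -0.25 ± 0.13 and -0.32 ± 0.17 in VF against control, VF Ezh2 +/- against Ezh2 +/- and VF Ezh2 -/- against Ezh2 -/- cells. Slamf1, the CD150 gene, had 55.2, 69.9 and 84.7 CPM as lowest, median and highest in VF libraries, against 39.8, 51.3, 72.2 and 82.2 CPM in control libraries, and its 3 log2 changes ran from -0.20 to 0.12. Cd48 had no count in 1 of the 4 controls and 19.8 CPM in the highest VF library, and its changes of 0.43 to 1.49 had SEs of 0.96 to 1.30. Flt3, the receptor whose gain marks lymphoid-primed progenitors, had changes of -0.26 to 0.75, the largest being 0.75 ± 0.30 in VF Ezh2 +/- against Ezh2 +/- cells (edgeR, adjusted p = 0.121), which passed without Ezh2 +/- batch 2 replicate 1 (adjusted p = 0.0421). Esam changes ran from -0.14 to 0.37, and Cd27 changes from -0.30 to 0.19. Esam had 156, 249 and 361 CPM as lowest, median and highest in VF libraries, against 196, 213, 223 and 237 CPM in control libraries, and the 2 VF libraries of batch 1 were the lowest. Cd27 had 140.3, 196 and 304 CPM in VF libraries, against 182, 189, 213 and 226 CPM in control libraries, which lay inside the VF range. Over the 3 comparisons, Cd34 and Cd48 had positive log2 changes throughout and Procr, Eng and Ly6a negative ones, including changes that did not pass. The share of all genes with 1 sign throughout was not computed, so these signs are given as description only. The median log2 change over the 10 genes was -0.13, 0.05 and -0.28 in the 3 comparisons in that order, beside -0.03, -0.01 and 0.01 over all genes.

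**Figure D3:**
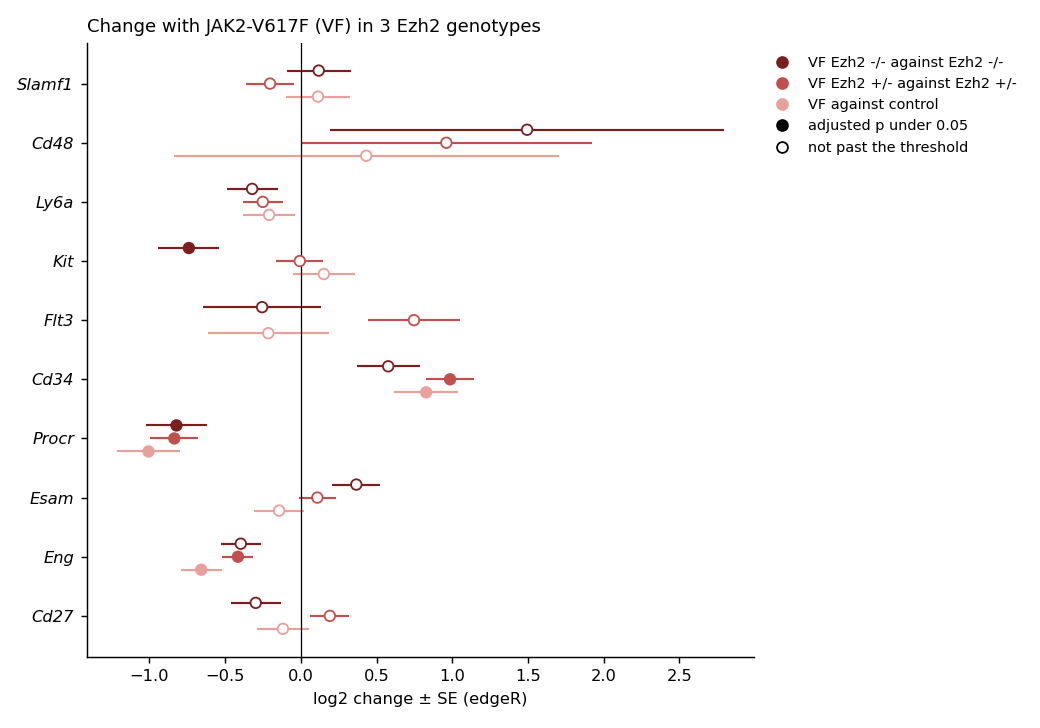
Log2 change ± SE (x axis, edgeR) of the 10 genes with JAK2V617F at the 3 Ezh2 genotypes. Filled points passed an adjusted p of 0.05: Procr in all 3, Eng and Cd34 in VF against control and in VF Ezh2 +/- against Ezh2 +/-, and Kit in VF Ezh2 -/- against Ezh2 -/-.

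**Figure D4:**
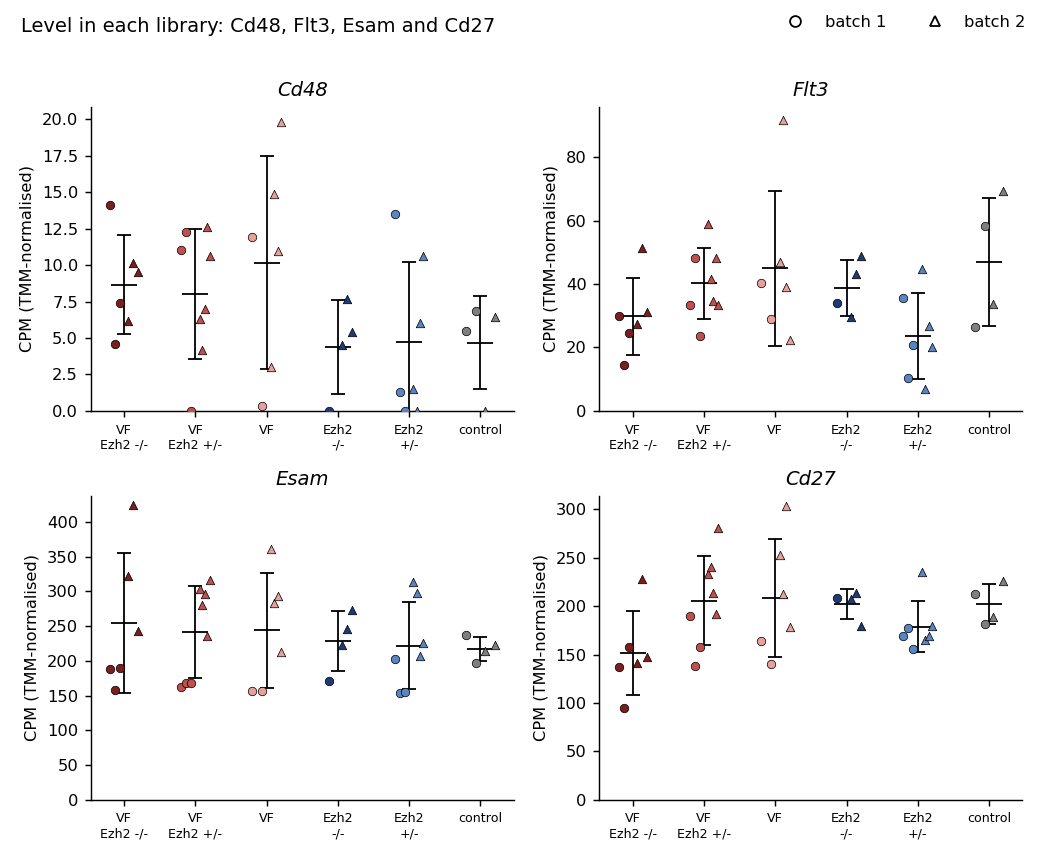
Level of Cd48, Flt3, Esam and Cd27 in each library (y axis, TMM-normalised CPM, linear from 0) by genotype group (x axis), with points as libraries (circles batch 1, triangles batch 2) and bars as mean ± SD. The groups overlap for all 4 genes, Cd48 has libraries at 0, and Esam is lower in most batch 1 libraries.

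No gene of the 10 passed edgeR's test with loss of both Ezh2 alleles, with or without JAK2V617F. In VF Ezh2 -/- against VF cells 0 of the 10 passed, where 0.475% of all genes passed (0.401% higher, 0.0736% lower). For none of the 10 were the groups free of overlap, as they were for 0.97% of all genes. At an unadjusted p under 0.05 there were 5 of the 10 (Ly6a and Procr with a positive change, Kit, Cd34 and Cd27 with a negative one), beside 7.13% of all genes. DESeq2 called 1, Ly6a, and limma-voom called 0. The 2 Ezh2-null comparisons share no library with each other, while the first shares VF Ezh2 -/- and VF libraries with the comparisons above.

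Ly6a was the nearest to a call in both. VF Ezh2 -/- libraries had 182, 229 and 272 CPM as lowest, median and highest, against 121, 147 and 210.2 CPM in VF libraries, and 4 of the 6 lay above every VF library. Ly6a had a log2 change of 0.62 ± 0.15 (adjusted p = 0.0573, edgeR). It passed without VF Ezh2 -/- batch 2 replicate 2 (adjusted p = 0.0333), without VF batch 2 replicate 3 (0.0261) and with DESeq2 (0.00879).
Ezh2 -/- libraries had 249.7, 278, 311 and 345 CPM, against 114, 159, 192 and 223 CPM in control libraries, and all 4 lay above all 4. Of all genes tested, 2.81% had groups without overlap in this comparison. The log2 change was 0.73 ± 0.19 (edgeR, unadjusted p = 0.0005, adjusted p = 0.415), with 0 of the 10 genes and 0.00669% of all genes past the threshold, 1 of the 10 and 5.96% of all genes at an unadjusted p under 0.05, and Ly6a called by DESeq2 (adjusted p = 0.0281). In batch 1 alone the change was 1.60, from 1 Ezh2 -/- library against 2 controls, and in batch 2 alone it was 0.37. Ly6a has close relatives, and reads shared with them cannot be followed in these counts. Of those relatives Ly6e was at 728 to 1421 CPM, Ly6c2 at 0.203 to 195 CPM and Ly6c1 at 0 to 2.52 CPM.

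Of the genes that had moved with JAK2V617F, Cd34 had 159.5, 266 and 352 CPM in VF Ezh2 -/- libraries, against 299, 403 and 523 CPM in VF libraries. Its log2 change was -0.53 ± 0.18 (edgeR, adjusted p = 0.297), and 5 of 6 VF Ezh2 -/- libraries lay below every VF library. Procr had a log2 change of 0.38 ± 0.18 (adjusted p = 0.687), Kit -0.44 ± 0.18 (0.498) and Eng 0.21 ± 0.12 (0.798). In Ezh2 -/- against control cells Kit had a change of 0.45 ± 0.23 (edgeR, adjusted p = 0.843), opposite in sign to that in VF cells. The difference between the 2 Kit effects was -0.89 ± 0.31 and did not pass (edgeR interaction term, adjusted p = 0.609). No other of the 10 genes passed this interaction test either, and 0.00669% of all genes did. At an unadjusted p under 0.05 it held Kit and Esam (0.51 ± 0.24), beside 5.41% of all genes, and DESeq2 and limma-voom each called 0 of the 10.

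Loss of 1 Ezh2 allele gave 0 calls among the 10 genes and 0.0% of all genes in VF Ezh2 +/- against VF cells, in Ezh2 +/- against control cells and in the difference of these effects. Groups did not overlap for 0.0401% and 0.308% of all genes in the first 2, and overlapped for all 10. DESeq2 and limma-voom also called 0 of the 10 in each. Ly6a again had a positive change in both comparisons, 0.34 ± 0.14 and 0.38 ± 0.17, with unadjusted p of 0.0201 and 0.0307 and adjusted p of 1.0 and 0.952 (edgeR). Flt3 had 6.77, 20.7 and 44.8 CPM as lowest, median and highest in Ezh2 +/- libraries, against 26.6, 33.7, 58.2 and 69.3 CPM in control libraries, a log2 change of -1.06 ± 0.37 (edgeR, unadjusted p = 0.00671, adjusted p = 0.901). Beside these, no gene of the 10 had an unadjusted p under 0.05 in the 2 comparisons, and none in the difference of effects, where 3.87%, 5.17% and 4.16% of all genes did in that order.

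**Figure D5:**
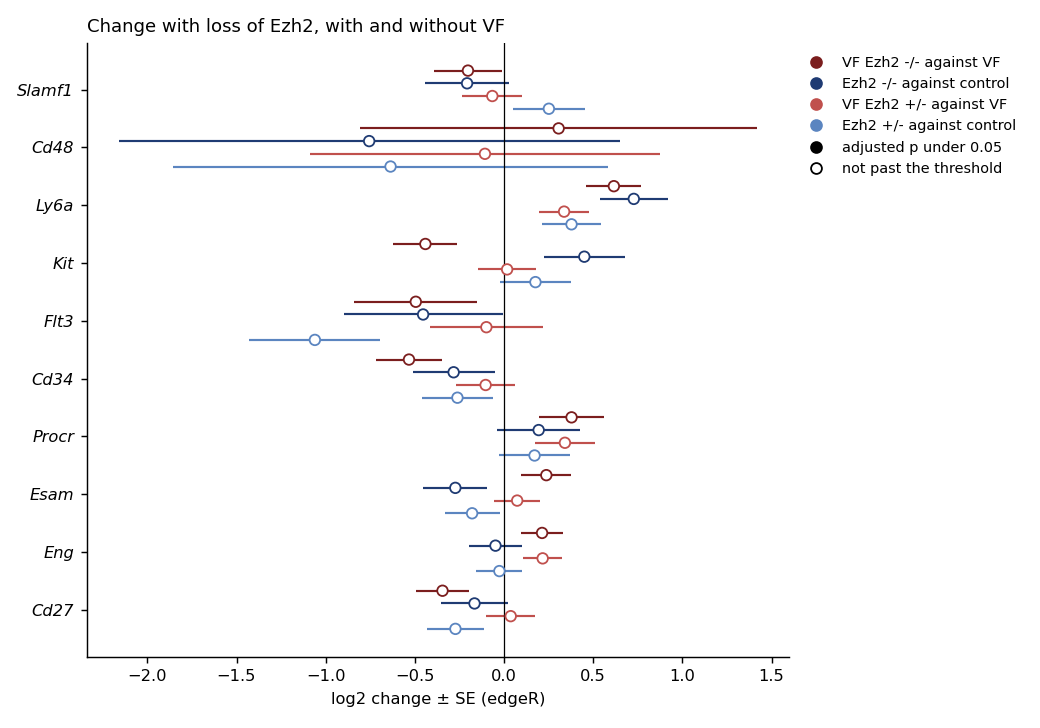
Log2 change ± SE (x axis, edgeR) of the 10 genes with loss of both or 1 Ezh2 allele, in VF cells and in cells without JAK2V617F. All points are open, since none passed, and Ly6a has changes of 0.34 to 0.73 in the 4 comparisons.

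Partners of the 10 proteins were examined as a list of 19 ligands, receptors and signalling proteins, of which 17 were tested. F2r, the thrombin receptor PAR1 that activated protein C cleaves when bound to EPCR, rose in all 3 JAK2V617F comparisons. It averaged 300.2 ± 62.1 CPM in VF against 121 ± 23.6 CPM in control cells (SD, n = 6 and 4; log2 change 1.42 ± 0.40, adjusted p = 0.0379, edgeR), 310.3 ± 92.4 against 137 ± 74.4 CPM in VF Ezh2 +/- and Ezh2 +/- cells (1.14 ± 0.30, adjusted p = 0.0122) and 286 ± 189 against 98.0 ± 26.2 CPM in VF Ezh2 -/- and Ezh2 -/- cells (1.32 ± 0.40, adjusted p = 0.0488). In VF Ezh2 -/- libraries F2r ran from 162 to 665 CPM, and its calls with a library left out are not given here. Procr fell where F2r rose, but F2r was named from the 19 for its calls. A link between the 2 genes was not tested. Gas6, in the list although the TAM kinases that its protein binds are not among the 10, fell in VF against control cells (2.08 ± 1.54 and 10.8 ± 3.91 CPM) and in VF Ezh2 +/- against Ezh2 +/- cells (3.06 ± 1.10 and 18.7 ± 9.36 CPM). Siva1, which binds the tail of CD27, rose in VF Ezh2 +/- against Ezh2 +/- cells by 0.48 ± 0.13 (adjusted p = 0.0159, edgeR) and in VF Ezh2 -/- against Ezh2 -/- cells by 0.68 ± 0.17 (adjusted p = 0.0146). Counts were 1 up and 1 down in VF against control, 2 up and 1 down in VF Ezh2 +/- against Ezh2 +/- and 2 up and 0 down in VF Ezh2 -/- against Ezh2 -/- cells, with medians of 0.00, -0.04 and -0.01. Of all genes tested, 4.22%, 9.05% and 4.84% passed in these 3 comparisons. In the 2 Ezh2-null comparisons 0 of the 17 passed edgeR, with 3 and 1 at an unadjusted p under 0.05, beside 7.13% and 5.96% of all genes.

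Of 28 further surface genes of stem cells, 0 rose and 4 fell in VF against control cells, 2 rose and 7 fell in VF Ezh2 +/- against Ezh2 +/- cells, and 1 rose and 6 fell in VF Ezh2 -/- against Ezh2 -/- cells, with medians of -0.09, -0.03 and -0.31 on the log2 scale. Beside these and the lists below stand 4.22%, 9.05% and 4.84% of all genes passing in the 3 comparisons. Cd81, a tetraspanin, averaged 616.8 ± 34.5 CPM in VF and 871 ± 153 CPM in control cells (log2 change -0.55 ± 0.08, edgeR, adjusted p = 0.000188), and it fell by 0.48 and 0.53 on the log2 scale in the other 2. Alcam, an adhesion molecule, averaged 26.6 ± 4.46 CPM in VF and 73.1 ± 13.7 CPM in control cells (-1.37 ± 0.23). Alcam also fell in VF Ezh2 +/- against Ezh2 +/- cells (-1.07 ± 0.18, edgeR, adjusted p = 9.73e-05). It was the 1 gene of this list that passed in VF Ezh2 -/- against VF cells, where it rose by 0.98 ± 0.21 (edgeR, adjusted p = 0.0149). This rise and the fall against control use the same 6 VF libraries, so they are not independent. Cd82, a tetraspanin of LT-HSCs, fell by 1.0, 0.65 and 0.86 in the 3 comparisons. Among the tested genes of the SLAM family (8), Slamf8 alone passed, in VF Ezh2 +/- against Ezh2 +/- cells (1.38 ± 2.04 and 9.44 ± 3.48 CPM; adjusted p = 0.00807, edgeR). Among the tested genes of the Ly6 family (7), Ly6d alone passed, in VF against control cells, with 0 counts in the 6 VF libraries and 80 in the 4 controls. The controls ran from 0 to 1.35 CPM, so the Ly6d call rests on a level near 0. Of 17 transcription factors of stem cells, 0 rose and 4 fell in VF against control cells (Hoxa9, Lmo2, Hlf and Mecom), 0 rose and 8 fell in VF Ezh2 +/- against Ezh2 +/- cells, and 1 rose (Mycn) and 3 fell (Hlf, Lmo2 and Meis1) in VF Ezh2 -/- against Ezh2 -/- cells.

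Genes of other blood cells were measured in the same libraries. None of 14 tested genes of granulocyte and monocyte progenitors passed edgeR in any comparison (0 to 2 at an unadjusted p under 0.05), but their summed level varied widely: 1423 to 11116 CPM in VF against 2027 to 3748 in control libraries, 1082 to 8667 in VF Ezh2 +/- against 887 to 3887 in Ezh2 +/- libraries, and 962 to 4924 in VF Ezh2 -/- against 1345 to 2760.2 in Ezh2 -/- libraries. Mpo, the myeloperoxidase gene of these progenitors, alone ran from 2.84 to 2628 CPM. Of 12 erythroid genes, 1 rose and 1 fell in VF against control cells, 1 rose and 6 fell in VF Ezh2 +/- against Ezh2 +/- cells, and 1 rose and 0 fell in VF Ezh2 -/- against Ezh2 -/- cells. The shares of all genes passing were 4.22%, 9.05% and 4.84% in that order. Hbb-bs averaged 0.95 ± 0.32 CPM in VF Ezh2 +/- and 82.7 ± 83.5 CPM in Ezh2 +/- cells, while Gata1 was the gene that rose in the first 2 and Rhag in the last. The median log2 changes of the 12 erythroid genes were -1.72, -3.38 and -1.16 in the 3 comparisons, including genes that did not pass. At an unadjusted p under 0.05 (edgeR) there were 6, 8 and 8 of the 12, beside 17.4%, 22.7% and 18.4% of all genes. Erythroid sums were 3743 to 6436 CPM in VF against 4045 to 5865 CPM in control libraries. Car2 alone averaged 5061 CPM over the 35 libraries, so these sums mostly follow Car2. Of 10 tested lymphoid genes, Klrb1c alone passed, lower in VF against control and in VF Ezh2 +/- against Ezh2 +/- cells. The median log2 changes of these 10 were -2.21, -0.62 and -0.23 in the 3 JAK2V617F comparisons. At an unadjusted p under 0.05 (edgeR) there were 6, 4 and 0 of them, beside 17.4%, 22.7% and 18.4% of all genes. Lymphoid sums, led by Nkg7 with a mean of 67.8 CPM, were 93.5 to 251.0 CPM in VF and 179 to 202 CPM in control libraries. Cd3e had no count in 32 libraries and Il7r in 26. Of 9 endothelial and stromal genes Pdgfra alone passed, with 0 counts in VF Ezh2 -/- and 10 in Ezh2 -/- libraries. These 10 counts came from 1 library, at 0.442 CPM, so the call rests on a level near 0. Their sums were 82.4 to 144 CPM in VF against 101 to 121 CPM in control libraries, led by Pecam1 with a mean of 71.7 CPM. Cdh5, another endothelial gene of the list, had no count in 29 libraries and 3.10 CPM at most. Eng, Esam and Procr, which endothelium also expresses, were present in all 35. The part of these other cells in the changes of Procr, Eng, Cd34 and Kit was not tested.

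The genes most like each marker were sought among 9609 genes by Pearson correlation of log2 CPM over the 35 libraries, after removal of batch and sex. This is a description, since the points share the 6 genotype groups. Procr was most like Cd82 (r = 0.89) and Sdc4 (0.88), Eng most like Cracr2b (0.88) and Flot1 (0.86), and Cd34 most like Chad (0.87) and Actg1 (0.85). Kit was most like Adgrg1 (0.80) and Adgrl4 (0.78), and Ly6a most like B2m (0.77) and Oasl2 (0.76). With the group means removed as well, Procr kept 0.68 with Cd82, Kit 0.77 with Adgrg1, and Cd34 0.50 with Chad. For Cd48 the values were 0.71 with Mpi and 0.70 with Erp29, for Flt3 0.71 with Gpsm1 and 0.70 with Rnf115, for Cd27 0.68 with Krt18 and 0.66 with Aldoc, for Esam 0.66 with Jakmip1 and 0.65 with Lcmt2, and for Slamf1 0.59 with Polr1a and 0.54 with Ctr9. Between members, Procr and Eng had the highest value, 0.71, and within groups theirs was 0.09.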

How the data were processed

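RNA-seq of 35 libraries of sorted mouse LT-HSCs was analysed. For each Entrez gene, the authors deposited unnormalised read counts and a gene length. STAR and build mm9 are named in the submitters' processing notes. The sources used here give neither the counting tool nor the use of strand. The separate Ezh2 entry (at most 0.000935% of counts) stayed out of library sizes and tests. RefSeq symbols of another build matched 19075 of 19138 genes, and promoters are from that build, GRCm38.p6. edgeR 4.0.16 (R 4.3.3) used 1 model of genotype group, batch and sex over the 35 libraries (27 residual degrees of freedom), after TMM normalisation (factors 0.937 to 1.06) and its low-count filter (14945 genes kept, 4193 removed). The quasi-likelihood test was adjusted by Benjamini-Hochberg over all genes and called at 0.05, and SE is the absolute log2 change over the square root of F. The fit was tested on simulated data. Alternatives were DESeq2 1.42.0, its size factors, limma 3.58.1 (voom with quality weights), no filter, no sex term, a replicate block, 1 batch or females alone, and libraries left out. The batch term for the JAK2V617F effect was added after seeing the data. Tables and figures used Python 3.11.15, pandas 2.3.3, numpy 2.4.6 and matplotlib 3.10.9. The 10 genes and the gene lists, written from general knowledge, were chosen with earlier results of these data known. Named genes are the 10, up to 3 called genes per list and comparison with the smallest adjusted p, and 2 genes most like each member (log2 CPM, prior count 2, mean at least 3). Cd82, Mecom, Mycn and Gata1 also appear where outside this rule, after their values were seen, as do genes given for levels or libraries at 0. Some genes of the lists, and the megakaryocyte list, are not reported here.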

Additional observations from a re-analysis of the deposited data

Results flagged for a closer look

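In 60 combinations of gene and group, 4 held a library that lay apart from the rest of its group by Dixon's criterion, where chance gives about 1 in 20. Kit was at 1883 CPM in Ezh2 +/- batch 1 replicate 1, a library that also goes against its label, and at 757 to 1209.8 CPM in the other 6. Flt3 was at 91.7 CPM in VF batch 2 replicate 2 and at 22.4 to 47.1 CPM in the other 5. Eng was at 344 CPM in the batch 1 library of Ezh2 -/- cells and at 385 to 392 CPM in the other 3, which were batch 2. Cd27 was at 236 CPM in Ezh2 +/- batch 2 replicate 1 and at 156 to 179 CPM in the other 6. The JAK2V617F effect on Eng differed between batches, by 0.57 on the log2 scale (batch 2 minus batch 1, edgeR interaction, adjusted p = 0.0121), and what else differed between the batches was not tested.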

How the results depend on the processing

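Among the 10 genes, VF against control gave 3 calls, 1 in batch 1 alone (Eng) or batch 2 alone (Cd34), and 2 in females alone (Eng and Procr). VF Ezh2 +/- against Ezh2 +/- gave 3, and 1 in batch 1 alone (Eng) or in females alone (Cd34). VF Ezh2 -/- against Ezh2 -/- gave 2, 3 with DESeq2 or without the sex term (both adding Eng), 1 without the low-count filter (Procr), 0 in batch 1 alone, 1 in batch 2 alone (Kit) and 0 in females alone, where each part held fewer libraries. The Kit change there was 0.085 in batch 1 alone, which held 1 Ezh2 -/- library. VF Ezh2 -/- against VF gave 0, but 1 (Ly6a) without the filter, with DESeq2, without the sex term and without the 2 doubted libraries, and Ezh2 -/- against control gave 0, but 1 (Ly6a) with DESeq2. The difference of the JAK2V617F effect between batches gave 1 and, without the 2 doubted libraries, 0. Leaving out 1 library at a time gave 2 to 3, 3 to 4, 0 to 2, 0 to 1 and, for the batch difference, 0 to 1 calls in the same order, and 0 in the other comparisons. The cause of these differences was not tested.

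With a replicate block the 3 JAK2V617F comparisons gave 2, 3 and 3 calls: Cd34 in VF against control was lost (0.60, adjusted p = 0.105), Kit in VF Ezh2 -/- against Ezh2 -/- was lost (-0.65, 0.0768), and Cd34 (0.73, 0.0448) and Esam (0.50, 0.0271) were gained there. Libraries of the same number did not deviate together (64 pairs, median r -0.0015, 2 over 0.1), so the numbers were not taken as pairs. Over all genes, VF against control gave 631 calls (282 to 676 with 1 library left out, 38 to 1003 in other settings), VF Ezh2 +/- against Ezh2 +/- 1353 (1042 to 1553, 176 to 1710), VF Ezh2 -/- against Ezh2 -/- 723 (357 to 668, 3 to 1117), and VF Ezh2 -/- against VF 71 (38 to 66, 1 to 193). Low levels limit Cd48, whose SEs were 0.96 to 1.30.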
